A study of Mus musculus with 8 samples.

Results

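The 36 genes described here encode the machinery that carries nascent secretory and membrane proteins into the endoplasmic reticulum (ER) and attaches and trims their N-linked glycans. They were taken by symbol, and all 36 were among the 13696 symbols of the deposited expression table. They fall into 6 groups by role, which are 8 genes of signal recognition, 6 of the translocon, 4 of the translocon-associated protein complex (TRAP), 5 of the signal peptidase, 9 of the oligosaccharyltransferase and 4 of glucose trimming and checking (glucosidases in the plots). The libraries were 4 from livers of Alb-Cre Bicd2fl/fl mice and 4 from livers of Alb-WT Bicd2fl/fl mice, called Alb-Cre and Alb-WT here. All carried loxP-flanked Bicd2, a gene for an adaptor of the dynein motor, and Cre driven by the albumin promoter acts mainly in hepatocytes and can also act in cholangiocytes. Which cells keep Bicd2 cannot be seen in whole liver values. Both groups were under the same model of autoimmune hepatitis. Mice received intraperitoneal S-100, the high-speed supernatant of homogenized mouse liver in complete Freund's adjuvant, once a week at 2.5 mg over 3 weeks. Tissue was collected 2 weeks later. Age and sex are not given in the labels used here, and nothing there says that libraries came from separate animals, so p-values measure the spread between these libraries, which may be technical.

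In mammalian cells the signal recognition particle binds the signal sequence of a protein while it is being made and brings the ribosome to its receptor on the ER membrane. The chain then enters the Sec61 channel, which TRAP and the oligosaccharyltransferase flank, and the signal peptidase removes the signal sequence. The oligosaccharyltransferase moves a preassembled glycan onto asparagine residues, and glucosidases then trim the glucose residues that lectin chaperones read. Hepatocytes secrete most plasma proteins and are rich in this machinery.

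Expression was given as FPKM, fragments scaled to gene length and library depth, and the depth recovered from these values was 32793770 to 39157210 fragments per library. Bicd2 was at 0.509 to 0.732 FPKM in Alb-Cre against 2.46 to 3.11 FPKM in Alb-WT. Of the 6 hepatocyte markers listed (Alb, Ttr, Apoa1, Cps1, Tat and Cyp2e1) 2, Tat and Cyp2e1, were called lower in Alb-Cre. The summed level of the 6 was 41500 to 42900 FPKM in Alb-Cre replicates 1 to 3, above every Alb-WT library (39900 to 40600 FPKM). In replicate 4 it was 30900 FPKM, below every one. Most of this sum was Alb, at 26400 to 27600 FPKM in Alb-Cre replicates 1 to 3. Alb and Ttr alone were above every Alb-WT library in these replicates. Apoa1, Tat and Cyp2e1 were below every Alb-WT library in all 4 Alb-Cre libraries. Alb-Cre replicate 4 stood apart. Across genes it correlated at 0.958 to 0.96 (Pearson, log2 scale) with its own group and at 0.974 to 0.977 with Alb-WT, so values are given with and without it. All 5 Kupffer cell markers were called lower in Alb-Cre, with a summed level of 118 to 130 FPKM in replicates 1 to 3 and 372 FPKM in replicate 4, against 421 to 448 FPKM in Alb-WT. Clec4f, Vsig4, Cd5l and Timd4 were below every Alb-WT library in all 4 Alb-Cre libraries. Marco was at 6.41 to 6.96 FPKM in replicates 1 to 3, but at 125 FPKM in replicate 4, above every Alb-WT library (83.1 to 90.4 FPKM). All 4 neutrophil markers were lower, with sums of 6.62 to 7.01 FPKM in replicates 1 to 3 and 81 FPKM in replicate 4, against 252 to 318 FPKM in Alb-WT. All 4 genes listed as monocyte markers (Ly6c2, Ccr2, Chil3 and Adgre1) were lower, with sums of 5.81 to 6.17 FPKM in these 3 and 24.8 FPKM in replicate 4, against 52.9 to 56.2 FPKM in Alb-WT. Most of the sum in each Alb-Cre library was Adgre1. It was at 5.11 to 5.4 FPKM in replicates 1 to 3 and 13.5 FPKM in replicate 4, against 21 to 23.5 FPKM in Alb-WT. All 3 tested cholangiocyte markers were lower, with sums of 3.71 to 4.61 FPKM in these 3 and 6.12 FPKM in replicate 4, against 7.91 to 8.8 FPKM in Alb-WT. Of 5 stellate cell markers 2 were lower, with sums of 28.8 to 31 FPKM in these 3 and 37.5 FPKM in replicate 4, against 47.9 to 50.8 FPKM in Alb-WT. Of 5 endothelial markers 2, Stab2 and Lyve1, were lower. Their sums overlapped, at 29.4 to 32 FPKM in replicates 1 to 3 and 24.1 FPKM in replicate 4, against 29.4 to 31.6 FPKM in Alb-WT. Without replicate 4, Stab2, Lyve1 and Pecam1 were called lower and Clec4g higher (limma log2 fold change 0.48, adjusted p = 0.000174). Clec4g was at 17.9 to 19.6 FPKM in replicates 1 to 3, against 12.1 to 14.6 FPKM in Alb-WT. With all libraries none of the T and B cell markers tested was called. Without replicate 4, Cd3d, Cd3g, Cd4, Cd79a and Cd79b were each called lower (limma adjusted p of 5.48e-05 to 0.0491). Of all rows, 46.1% were lower without it. T cell marker sums were 0.856 to 1.36 FPKM in replicates 1 to 3 and 5.18 FPKM in replicate 4, against 3.05 to 3.47 FPKM in Alb-WT. In whole liver RNA, fewer cells of a type and less RNA per cell cannot be told apart. The part of cell composition in the differences below was not tested.

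Of the 36 genes, 21 rose in Alb-Cre, none fell and 15 did not pass (limma on log2(FPKM + 1), Benjamini-Hochberg adjusted p under 0.05 over 11077 rows). Among all rows tested 8.48% were called higher and 23.3% lower. The median log2 fold change of the 36 was 0.36, beside -0.13 over all rows. All 4 Alb-Cre values lay above all 4 Alb-WT values for 25 of the 36 genes (9.27% of all rows). The opposite held for 1, Sec62, named here for its values (21.4% of all rows). Without Alb-Cre replicate 4 the counts were 23 higher and 2 lower (15.2% and 46.1% of all rows), the lower ones being Sec61a2 and Sec62, and the median was 0.25. Replicate 4 was the highest Alb-Cre library for 30 of the 36 genes, which it was for 60.1% of all rows. Higher values were thus present in Alb-Cre replicates 1 to 3 and mostly larger in replicate 4.

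**Figure D1:**
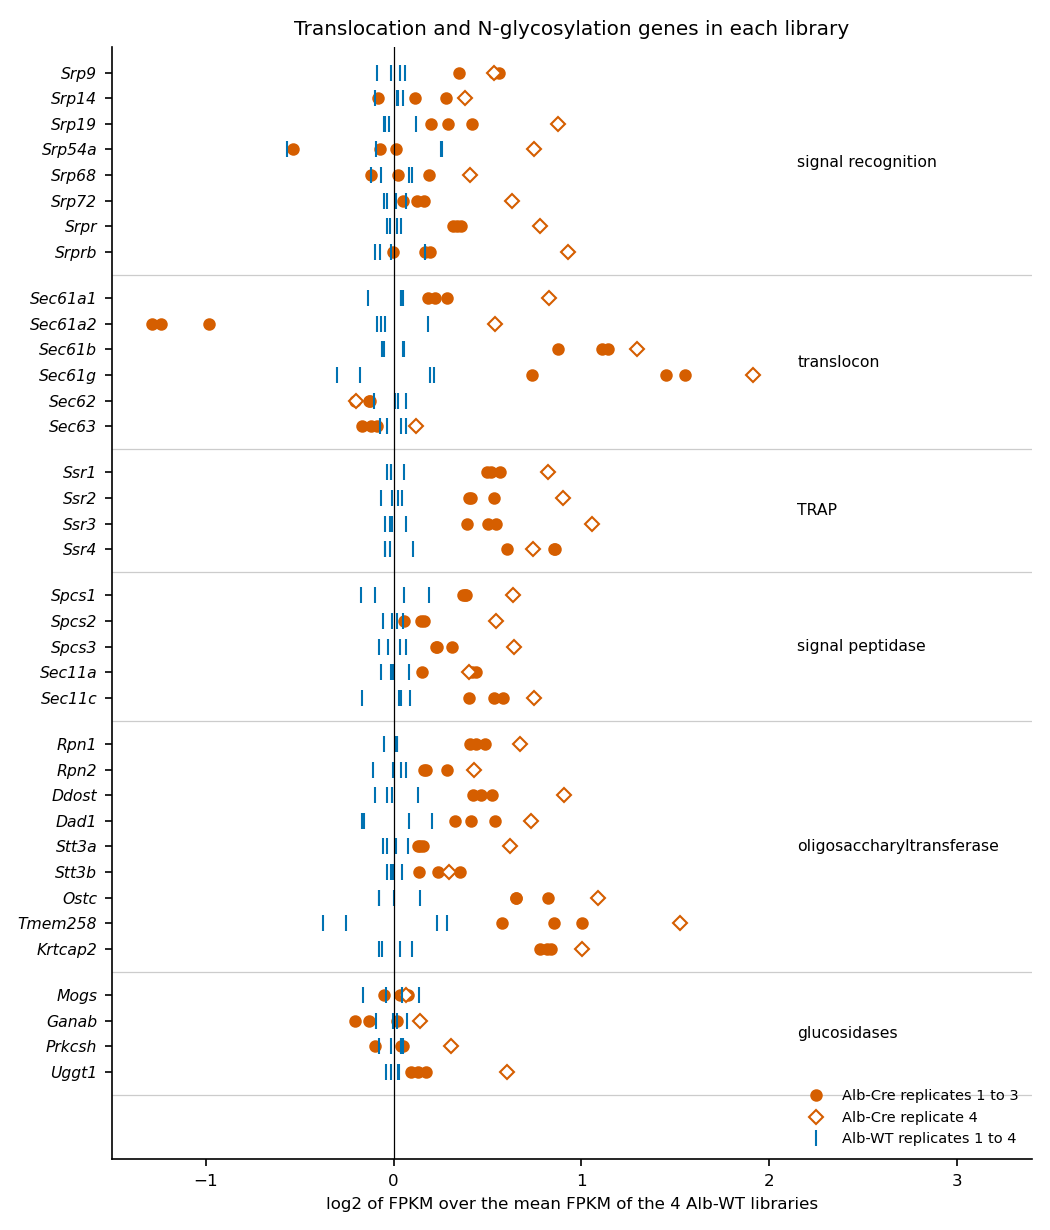
Each row is a gene, and the horizontal axis is the log2 of its FPKM over the mean of the 4 Alb-WT libraries; filled circles are Alb-Cre replicates 1 to 3, open diamonds Alb-Cre replicate 4 and bars the Alb-WT libraries. For 25 of the 36 genes every Alb-Cre point lies right of every Alb-WT bar, and replicate 4 is the rightmost Alb-Cre point for 30.

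Promoter sequence is shown for 6 of these genes because many of them moved together and because ER stress factors are known to act through short promoter elements. Each window of 300 bases runs from upstream of the annotated start into the transcript (RefSeq, GRCm38.p6). Of the 36 genes 29 had an entry, some more than one, and 7 (Srp19, Srp68, Sec61a1, Ssr2, Spcs3, Sec11c and Ostc) had none. Krtcap2 had 2 entries, and the one with the fullest match is printed. Sec61b, Krtcap2, Ssr4 and Ssr1 had the smallest p among genes with an entry, and Mogs and Ganab, which were not called, are set beside them. Capitals mark matches on either strand to ER stress element II (ATTGG, then any 1 base, then CCACG), to the core of the unfolded protein response element (TGACGTG), and to the half-sites CCACG and CCAAT. Both half-sites are contained in ER stress element II, ATTGG being CCAAT on the other strand.
Sec61b (GRCm38.p6, chr4:47474411-47474710, plus strand): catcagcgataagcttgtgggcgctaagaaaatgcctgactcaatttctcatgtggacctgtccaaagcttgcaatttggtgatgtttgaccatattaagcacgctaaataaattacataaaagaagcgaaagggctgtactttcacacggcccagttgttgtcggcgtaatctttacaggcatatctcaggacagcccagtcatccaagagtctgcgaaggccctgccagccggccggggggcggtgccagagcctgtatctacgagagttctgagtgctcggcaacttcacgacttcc
Krtcap2 (GRCm38.p6, chr3:89246223-89246522, plus strand): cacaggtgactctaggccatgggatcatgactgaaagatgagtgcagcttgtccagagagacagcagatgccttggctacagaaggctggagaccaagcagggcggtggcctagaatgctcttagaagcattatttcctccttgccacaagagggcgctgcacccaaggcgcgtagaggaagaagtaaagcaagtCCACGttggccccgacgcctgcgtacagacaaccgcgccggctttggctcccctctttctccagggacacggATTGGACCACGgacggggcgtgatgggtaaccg
Ssr4 (GRCm38.p6, chrX:73786773-73787072, plus strand): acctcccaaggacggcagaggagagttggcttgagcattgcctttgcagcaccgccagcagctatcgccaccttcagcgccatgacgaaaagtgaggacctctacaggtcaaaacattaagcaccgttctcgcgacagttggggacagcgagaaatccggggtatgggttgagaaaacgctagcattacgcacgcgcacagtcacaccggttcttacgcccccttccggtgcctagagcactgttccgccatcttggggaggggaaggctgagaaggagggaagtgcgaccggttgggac
Ssr1 (GRCm38.p6, chr13:37994159-37994458, minus strand): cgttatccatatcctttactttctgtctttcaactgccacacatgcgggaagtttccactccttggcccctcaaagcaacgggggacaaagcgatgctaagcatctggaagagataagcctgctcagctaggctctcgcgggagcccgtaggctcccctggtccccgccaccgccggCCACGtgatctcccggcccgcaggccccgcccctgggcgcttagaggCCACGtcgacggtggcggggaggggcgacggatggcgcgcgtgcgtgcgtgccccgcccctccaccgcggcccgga
Mogs (GRCm38.p6, chr6:83115256-83115555, plus strand): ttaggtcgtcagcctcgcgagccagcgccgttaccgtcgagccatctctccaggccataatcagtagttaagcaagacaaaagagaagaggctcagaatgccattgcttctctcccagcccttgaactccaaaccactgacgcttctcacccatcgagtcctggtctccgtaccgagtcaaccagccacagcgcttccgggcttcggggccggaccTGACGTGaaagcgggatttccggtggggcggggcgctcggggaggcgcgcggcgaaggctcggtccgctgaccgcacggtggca
Ganab (GRCm38.p6, chr19:8897807-8898106, plus strand): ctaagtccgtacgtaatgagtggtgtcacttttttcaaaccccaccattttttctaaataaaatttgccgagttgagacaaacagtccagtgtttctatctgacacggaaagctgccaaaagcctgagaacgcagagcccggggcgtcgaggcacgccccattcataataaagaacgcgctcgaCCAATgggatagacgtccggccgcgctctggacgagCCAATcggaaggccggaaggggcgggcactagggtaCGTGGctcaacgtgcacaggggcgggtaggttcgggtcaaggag

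The Krtcap2 window held the only match to ER stress element II among 32 windows of these genes, starting 18 bases after the start site, against 0.0801% of the 11242 windows of tested genes. The ER stress element, which joins CCAAT and CCACG over a gap of 9 bases, was in none of the 32 and in 0.142% of windows of tested genes. TGACGTG was in those of Srpr, which rose, and Mogs, which was not called, or 6.25% of windows against 2.73%. CCACG was in 19 of the 32 windows (59.4%), against 46.2% of windows of tested genes and 32.8% of all 32851. CCAAT was in 15 (46.9%), against 37.6% of those of tested genes. Of the 16 called genes with an entry 12 had CCACG, and of all 29 genes with an entry 18 did. Sec61b and Ssr4, among the clearest rises, had none of these letters in their windows, while the uncalled Ganab had CCACG and CCAAT in its own. A match is only a description of the sequence, and base composition was not matched in these shares.

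Of the 8 signal recognition genes 3 were higher, none lower and 5 did not pass, with a median log2 fold change of 0.26. The number higher depended on the scaling, as did the share of all rows. It was 7 under median-of-ratios scaling (16.9% of all rows), 5 after the gene length correction (12.6%) and 1 with a common FPKM sum (5.62%). Srp9, a small subunit of the particle, was at 21.3, 18.4, 20.9 and 20.9 FPKM in Alb-Cre replicates 1 to 4, against 13.6, 14.8, 14.3 and 15.1 FPKM in Alb-WT replicates 1 to 4. The groups did not overlap, and the spread within each was small. Its means were 20.4 ± 1.35 FPKM in Alb-Cre and 14.4 ± 0.664 FPKM in Alb-WT (SD, n = 4 each; limma log2 fold change 0.47, SE 0.0678, adjusted p = 0.00238). Srpr, which encodes the alpha subunit of the receptor for the particle, was at 68.6, 67.8, 66.8 and 91.9 FPKM in Alb-Cre, against 55, 54.2, 52.8 and 52.3 FPKM in Alb-WT. Replicate 4 was far above the other 3 Alb-Cre libraries, all of which still exceeded Alb-WT (limma log2 fold change 0.44, SE 0.103, adjusted p = 0.0157, and 0.33, adjusted p = 6.94e-05, without replicate 4). With a common FPKM sum (limma adjusted p = 0.0617) and with quantile normalization (0.085) the Srpr call was lost.

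Srp19, which takes part in assembling the particle, was the third gene called here, at 5.67 to 6.59 FPKM in Alb-Cre replicates 1 to 3 and 9.05 FPKM in replicate 4, against 4.76 to 5.36 FPKM in Alb-WT (limma adjusted p = 0.0438). Its call was lost in 7 of 17 alternative settings (adjusted p of 0.0591 to 0.128), 6 of which leave out a library. Srp14, the partner of Srp9, and Srp68 and Srp72, which form the large subunits of the particle, had log2 fold changes of 0.17, 0.12 and 0.23 and were not called. Srprb, the membrane anchor of the receptor, had 6.4 to 7.32 FPKM in Alb-Cre replicates 1 to 3 and 12.2 FPKM in replicate 4, against 5.99 to 7.21 FPKM in Alb-WT, and was not called. Srp54a, whose product binds the signal sequence, was low at 0.404 to 0.983 FPKM in Alb-Cre and 0.395 to 0.7 FPKM in Alb-WT. Its 70 to 205 fragments per library may be shared with near-identical Srp54 copies, so this value is uncertain. The median of the group was 0.11 without Alb-Cre replicate 4.

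The translocon genes did not move together. Sec61b and Sec61g, the small single-span subunits of the Sec61 channel, rose more than any other of the 36 genes, whereas the other 4 genes were not called. Sec61b was at 79.4, 66.1, 77.6 and 88.2 FPKM in Alb-Cre, against 34.7, 37.4, 34.5 and 37.3 FPKM in Alb-WT. Each Alb-Cre library thus had well above the highest Alb-WT level. The means were 77.8 ± 9.07 FPKM in Alb-Cre and 36 ± 1.59 FPKM in Alb-WT, a 2.16-fold difference (SD, n = 4 each; limma log2 fold change 1.09, SE 0.0892, adjusted p = 0.000194). Sec61g was at 32.5, 18.5, 30.3 and 41.9 FPKM in Alb-Cre, against 9.79, 12.7, 9 and 12.9 FPKM in Alb-WT. Values were spread in both groups, with Alb-Cre replicate 2 low and Alb-WT replicates 2 and 4 high, but the groups stayed apart (2.77-fold; limma log2 fold change 1.35, SE 0.224, adjusted p = 0.00424).

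Sec61a1 encodes the pore-forming alpha subunit. It was at 19, 19.5, 20.4 and 29.7 FPKM in Alb-Cre, against 17.2, 15.2, 17.3 and 17.2 FPKM in Alb-WT. Although all 4 Alb-Cre values were the higher ones, replicate 4 widened the spread and the gene was not called (limma log2 fold change 0.37, SE 0.134, adjusted p = 0.0625). It was called without replicate 4, at a smaller log2 fold change of 0.22 (adjusted p = 0.00764). Sec61a2, a second alpha subunit gene, was at 0.347, 0.359, 0.428 and 1.23 FPKM in Alb-Cre, against 0.796, 0.821, 0.808 and 0.962 FPKM in Alb-WT. Alb-Cre replicates 1 to 3 were below every Alb-WT library and replicate 4 above every one. With all libraries it was not called (limma log2 fold change -0.25, adjusted p = 0.237), and without replicate 4 it was lower (-0.42, adjusted p = 0.000345). Only 52 to 220 fragments per library lay behind it.

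Sec62 and Sec63, the membrane partners of the channel in post-translational import, did not share the rise. Sec62 was at 33.4 to 35.3 FPKM in Alb-Cre and 35.8 to 40.4 FPKM in Alb-WT, and was not called (limma log2 fold change -0.16, adjusted p = 0.0699). It was called lower with a common FPKM sum (limma adjusted p = 0.0292) and without Alb-Cre replicate 4 (0.032), and its sign turned with median-of-ratios scaling (0.03). Sec63 had 17.7 to 18.7 FPKM in Alb-Cre replicates 1 to 3 and 21.6 FPKM in replicate 4, against 18.9 to 20.8 FPKM in Alb-WT (log2 fold change -0.06). Its sign turned with the same scaling and with a gene length correction (0.13 each).

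**Figure D2:**
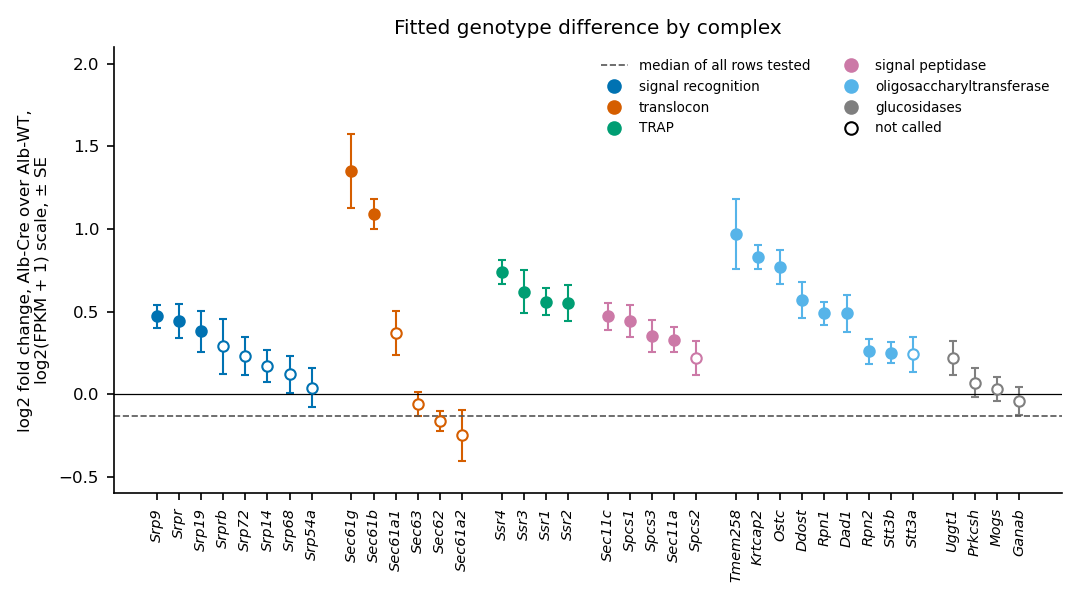
Points are fitted log2 fold changes of Alb-Cre over Alb-WT on the log2(FPKM + 1) scale with their standard errors, ordered by size within each group of genes; filled points passed the adjusted p threshold and the dashed line is the median of all rows tested, -0.13. The translocon spans the widest range, from -0.25 for Sec61a2 to 1.35 for Sec61g, while all 4 TRAP genes lie between 0.55 and 0.74.

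TRAP was the group in which every gene rose. All 4 genes were called, with log2 fold changes of 0.55 to 0.74 and a median of 0.59, and each stayed called in all 17 alternatives. Ssr4, the delta subunit, was at 38.2, 32.1, 38.4 and 35.4 FPKM in Alb-Cre, against 20.9, 20.5, 20.5 and 22.7 FPKM in Alb-WT. Replicate 4 lay within the range of the other Alb-Cre libraries for this gene (means 36 ± 2.93 and 21.2 ± 1.05 FPKM in Alb-Cre and Alb-WT, SD, n = 4 each; limma log2 fold change 0.74, SE 0.0739, adjusted p = 0.000441). Ssr1, the alpha subunit, was at 17.9, 18.8, 18.2 and 22.5 FPKM in Alb-Cre, against 13.2, 12.4, 12.6 and 12.6 FPKM in Alb-WT (limma log2 fold change 0.56, SE 0.0792, adjusted p = 0.00214). Ssr2 and Ssr3, the beta and gamma subunits, had 45.4 to 64.2 and 89.5 to 142 FPKM in Alb-Cre, against 32.8 to 35.5 and 66 to 71.5 FPKM in Alb-WT. For both the highest value was that of replicate 4. Ssr3 had the highest Alb-WT mean of all 36 genes, 68.2 FPKM.

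Of the 5 signal peptidase genes 4 rose and Spcs2 did not pass, and the median log2 fold change was 0.35. For all 5 the groups did not overlap. Sec11c, a catalytic subunit, was at 5.69, 5.01, 5.5 and 6.37 FPKM in Alb-Cre, against 3.9, 4.03, 3.87 and 3.37 FPKM in Alb-WT (limma log2 fold change 0.47, SE 0.0818, adjusted p = 0.00532). Sec11a, the alternative catalytic subunit, was at 15.4, 12.8, 15.6 and 15.2 FPKM in Alb-Cre, against 12.2, 11.5, 11 and 11.4 FPKM in Alb-WT (limma log2 fold change 0.33, SE 0.0752, adjusted p = 0.0149). Alb-Cre replicate 2 was the low one for both genes. Spcs1, an accessory subunit, was at 45.7, 45.5, 45.3 and 54.3 FPKM in Alb-Cre, against 31, 36.4, 32.7 and 39.9 FPKM in Alb-WT (limma log2 fold change 0.44, SE 0.097, adjusted p = 0.0128). Spcs3 rose by 0.35, a call lost in 7 of 17 alternatives, and Spcs2 was not called (0.22, limma adjusted p = 0.116).

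Of the 9 oligosaccharyltransferase genes 8 rose, none fell and Stt3a did not pass. The median log2 fold change was 0.49, and Alb-Cre exceeded Alb-WT without overlap for all 9. Krtcap2 and Ostc encode small subunits that in mammals join the STT3A form of the enzyme, which sits at the translocon. Krtcap2 was at 37.3, 38.8, 38.3 and 43.5 FPKM in Alb-Cre, against 20.8, 22.2, 20.6 and 23.2 FPKM in Alb-WT. Both groups were tight, with means of 39.5 ± 2.76 FPKM in Alb-Cre and 21.7 ± 1.22 FPKM in Alb-WT (SD, n = 4 each; limma log2 fold change 0.83, SE 0.0704, adjusted p = 0.000227). Ostc was at 31.9, 28.4, 28.4 and 38.4 FPKM in Alb-Cre, against 17.1, 18.1, 17.1 and 19.9 FPKM in Alb-WT (limma log2 fold change 0.77, SE 0.104, adjusted p = 0.00172).

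Stt3a and Stt3b encode the alternative catalytic subunits. Stt3a was at 14.2, 14.1, 14.4 and 19.8 FPKM in Alb-Cre, against 13, 12.4, 13.6 and 12.6 FPKM in Alb-WT. Alb-Cre replicates 1 to 3 were just above Alb-WT and replicate 4 well above (limma log2 fold change 0.24, SE 0.107, adjusted p = 0.105). Stt3b was at 28, 30.3, 26.1 and 29.1 FPKM in Alb-Cre, against 23.2, 24.5, 23.7 and 23.5 FPKM in Alb-WT (limma log2 fold change 0.25, SE 0.0626, adjusted p = 0.0204). The size was close to that of Stt3a, but the spread was smaller; the Stt3b call was lost in 7 of 17 alternatives, with adjusted p of 0.0515 to 0.12.

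Among the subunits shared by both forms, the ribophorin genes Rpn1 and Rpn2 rose by 0.49 and 0.26 on the log2 scale, Ddost by 0.57 and Dad1 by 0.49. Tmem258, a small subunit, had the largest rise of the group (0.97, SE 0.21, limma adjusted p = 0.0117). Its level was 22.3 to 43 FPKM in Alb-Cre and 11.5 to 18.2 FPKM in Alb-WT, so it varied widely within both groups. The call for Rpn2 was lost in 9 of 17 alternatives, whereas those for Rpn1, Ddost, Dad1, Ostc, Tmem258 and Krtcap2 were kept in all 17.

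None of the 4 glucose trimming genes was called, and they had a median log2 fold change of 0.05. Other scalings called Uggt1 higher (median-of-ratios, quantile and gene length correction, limma adjusted p of 0.00293 to 0.0111) and Prkcsh higher (median-of-ratios, 0.0197). Uggt1, which reglucosylates misfolded glycoproteins and so acts as a folding sensor, was at 8.17, 7.72, 7.93 and 11 FPKM in Alb-Cre, against 7.35, 7.18, 7.38 and 7.04 FPKM in Alb-WT. Every Alb-Cre value exceeded every Alb-WT value, by a small margin in replicates 1 to 3 (limma log2 fold change 0.22, SE 0.102, adjusted p = 0.118). Prkcsh, the beta subunit of glucosidase II, was at 27.3, 30.3, 30 and 36.1 FPKM in Alb-Cre, against 28.9, 27.7, 30 and 30.3 FPKM in Alb-WT (limma log2 fold change 0.07, SE 0.0859, adjusted p = 0.533). Ganab, its catalytic subunit, had 31.5 to 40.1 FPKM in Alb-Cre and 34.1 to 38.2 FPKM in Alb-WT. Mogs, glucosidase I, had 13.1 to 14.3 FPKM in Alb-Cre and 12.1 to 14.9 FPKM in Alb-WT. The fitted changes of both were under 0.05 in size (-0.04 and 0.03) and turned sign under other scalings. A difference in response between this group and the other 5 was not tested, since genes are not replicates of a condition.

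**Figure D3:**
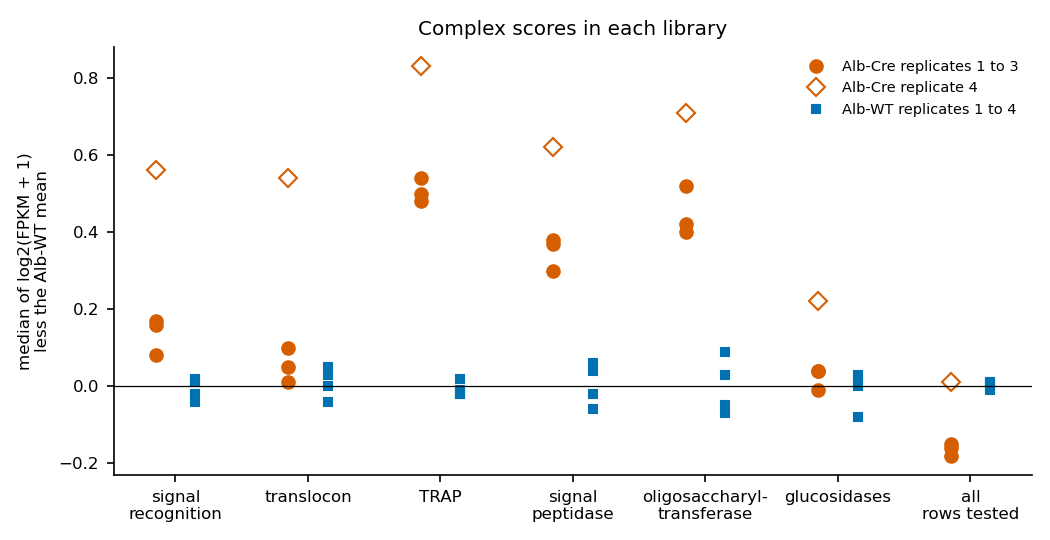
For each group of genes, and for all rows tested at the right, points give the median over genes of log2(FPKM + 1) less the Alb-WT mean in each library. TRAP, signal peptidase and oligosaccharyltransferase scores are 0.3 or more in every Alb-Cre library, while the translocon reaches 0.54 in Alb-Cre replicate 4 and at most 0.1 in the other 3.

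The scores by library show where replicate 4 differed. In Alb-Cre replicates 1 to 3 the signal recognition median was 0.08 to 0.17 above the Alb-WT mean, and in replicate 4 it was 0.56. TRAP stood at 0.48 to 0.54 in replicates 1 to 3 and 0.83 in replicate 4, and the oligosaccharyltransferase at 0.40 to 0.52 and 0.71. Glucose trimming genes were at -0.01 to 0.04 and 0.22. Over all rows tested the same measure was -0.18 to -0.15 in replicates 1 to 3 and 0.01 in replicate 4. Alb-WT libraries stayed within -0.08 to 0.09 for every group.

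The balance within paralog pairs was compared by the log2 ratio of their FPKM values in each library. For Sec61a2 over Sec61a1 it was -5.78, -5.76, -5.58 and -4.60 in Alb-Cre, against -4.43, -4.21, -4.42 and -4.16 in Alb-WT. In Alb-Cre replicates 1 to 3 Sec61a2 itself was below every Alb-WT library. In replicate 4 it was above every one (1.23 FPKM), and Sec61a1 was at 29.7 FPKM, against 15.2 to 17.3 FPKM in Alb-WT. Only 52 to 220 fragments per library lay behind Sec61a2. As a share, Sec61a2 was 1.83% to 4.13% of Sec61a1 in the Alb-Cre libraries, compared with 4.64% to 5.6% in those of Alb-WT, without overlap. The difference of means was -1.12 (exact two-sided permutation over 70 assignments, p = 0.0286, the smallest possible, and 0.0429 after adjustment over the 3 pairs). For Sec11c over Sec11a the ratio was 35.3% to 41.9% in the Alb-Cre libraries, compared with 29.7% to 35.1% in those of Alb-WT, a log2 difference of 0.22 (exact permutation p = 0.0286, adjusted 0.0429). The groups were separated here by a narrow gap. Stt3b over Stt3a was 147% to 215% in the Alb-Cre libraries, compared with 174% to 197% in those of Alb-WT (log2 difference -0.01, exact permutation p = 1), with Alb-Cre replicate 4 lowest of all 8 libraries. Adding a pseudocount of 1, or leaving out any single library other than Alb-Cre replicates 1 or 3, raised the adjusted p of both separated pairs above 0.05. Leaving out a library cannot make separated groups overlap. The differences were then -1.40 to -1.01 and 0.17 to 0.26, and the few assignments of 7 libraries allow only coarse steps of p.

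**Figure D4:**
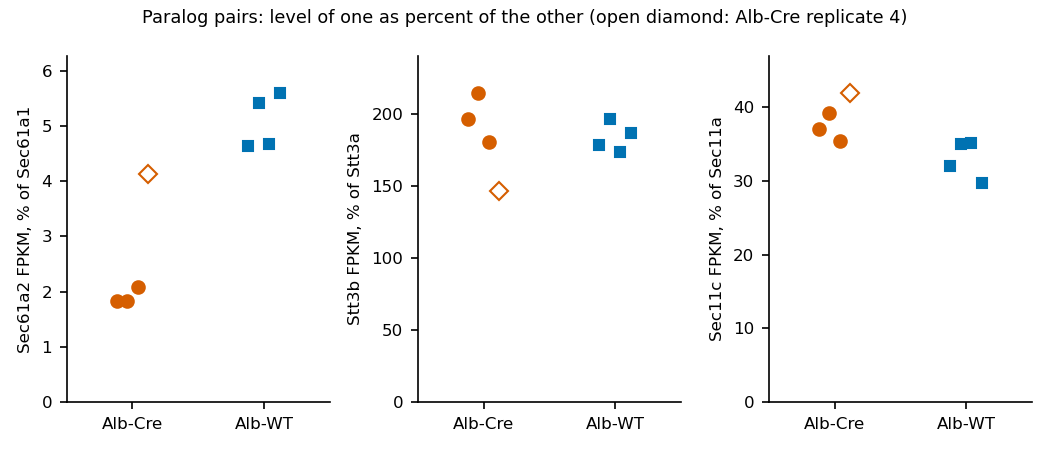
Each panel gives the FPKM of a gene as a percent of its paralog in each library, on an axis from 0. Sec61a2 lies lower and Sec11c higher relative to its partner in every Alb-Cre library (circles and the open diamond) than in every Alb-WT library (squares), while Stt3b overlaps.

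Subunits with short coding sequences rose more. Across the 36 genes, Spearman's rank correlation of the log2 fold change with coding length was -0.66 and with the merged exon length behind the FPKM -0.44 (n = 36 genes, which share the 8 libraries). Of 16 genes with a coding length under 600 bp, 15 rose and Srp14 did not pass, with a median log2 fold change of 0.52. Of the 20 longer ones 6 rose, with a median of 0.23. After the gene length correction described next these counts were 15 and 12. This split was made after the values were seen. Coding length was not compared over all rows, so no share of all short genes stands beside these counts. Of all rows 8.48% were higher before that correction. Over all rows tested the change also followed exon length (Spearman's rank correlation -0.25, n = 11066 rows). Within libraries, the rank correlation of the deviation with exon length was -0.21, -0.12, -0.25 and -0.07 in the Alb-Cre libraries by replicate number. It was 0.25, 0.15, 0.27 and 0.07 in those of Alb-WT. After removal of that trend from each library, 27 of the 36 genes were higher and none lower (12.6% of all rows higher), with a median of 0.45 beside -0.01 over all rows. Sec61g (1.39), Sec61b (0.99) and Tmem258 (0.93) remained the largest rises, and Srp14 was at 0.07. Across the 36 genes the rank correlation of the corrected change was -0.58 with coding length and -0.22 with exon length. The part of RNA quality in this pattern was not tested.

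**Figure D5:**
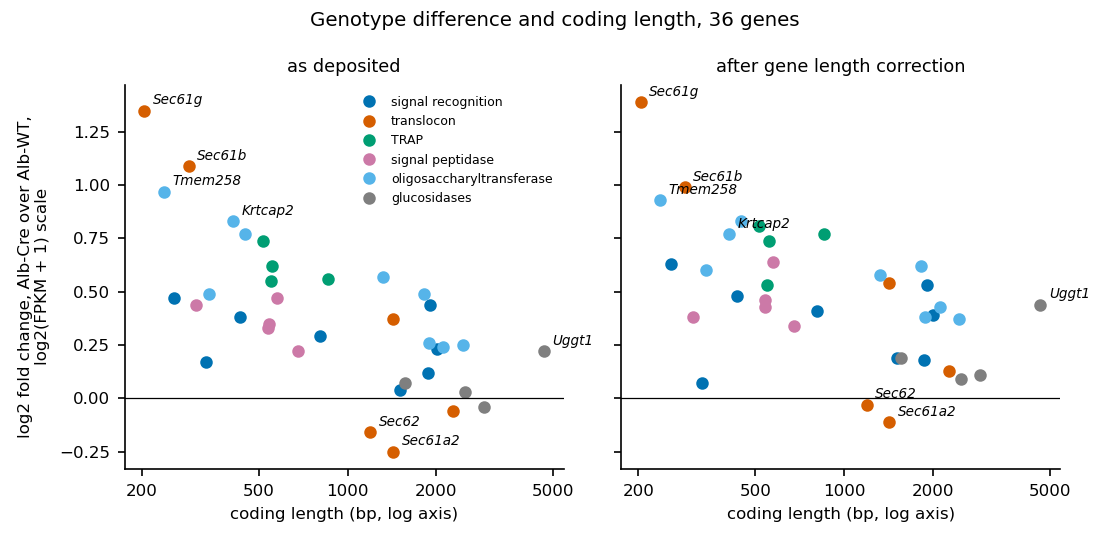
Each point is 1 of the 36 genes, with coding length in bp on a log axis and the log2 fold change of Alb-Cre over Alb-WT on the log2(FPKM + 1) scale, left from the deposited values and right after removing each library's trend with gene length. Genes under 600 bp have a median of 0.52 on the left and 0.63 on the right, and the longer ones 0.23 and 0.38.

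Genes on either side of this machinery were examined as lists. In the synthesis of the lipid-linked glycan that the oligosaccharyltransferase transfers, 5 of 22 tested genes rose and 1 fell (8.48% and 23.3% of all rows), with a median log2 fold change of 0.09. These counts depended on the scaling, with 11 higher and none lower under median-of-ratios scaling and none higher and 2 lower with a common FPKM sum. The mannosyltransferase genes Alg3 (0.37, limma adjusted p = 0.0132) and Alg12 (0.41, 0.0291) and the dolichol synthesis gene Dhdds (0.38, 0.0245) rose. Dolk, the kinase that makes dolichol phosphate, fell by 0.31 on the log2 scale (4.59 to 5.56 FPKM in Alb-Cre against 6.05 to 6.81 FPKM in Alb-WT; limma adjusted p = 0.0141). Without Alb-Cre replicate 4 the counts were 7 higher and 7 lower (15.2% and 46.1% of all rows). Leaving out an Alb-WT library left 1 of 22 higher in each case (4.94% to 6.09% of all rows). With the replicate block it was also 1 higher (5.53% of all rows), and without Alb-Cre replicate 1 it was 3 (5.07%). The Dolk call was lost with median-of-ratios scaling (adjusted p = 0.285) and quantile normalization (0.175).

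Accessory oligosaccharyltransferase subunits and the lectin cycle gave 4 of 9 tested genes higher and none lower (8.48% and 23.3% of all rows). Pdia3, the thiol isomerase that works with the lectin chaperones, was at 270 to 295 FPKM in Alb-Cre against 182 to 192 FPKM in Alb-WT (limma log2 fold change 0.57, adjusted p = 0.000568). Calr, the lectin chaperone calreticulin, was at 614 to 748 FPKM in Alb-Cre against 423 to 442 FPKM in Alb-WT (0.62, limma adjusted p = 0.00159). Ost4, a very small oligosaccharyltransferase subunit, rose by 0.61 and Magt1, a subunit of the STT3B form, by 0.22 on the log2 scale, the Magt1 call being lost without any of 7 single libraries. Without Alb-Cre replicate 4, 7 were higher and 1 lower (15.2% and 46.1% of all rows).

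Of 26 tested partners of the translocon and genes of other insertion routes, 6 rose and 1 fell (8.48% and 23.3% of all rows). The median log2 fold change was 0.07. The ER chaperone gene Hspa5, whose product drives import with Sec63, was at 355 to 415 FPKM in Alb-Cre against 216 to 230 FPKM in Alb-WT (limma log2 fold change 0.84, adjusted p = 0.000255). Hyou1, its exchange factor, was at 45.6 to 51.1 FPKM in Alb-Cre against 27.1 to 29.5 FPKM in Alb-WT (0.73, limma adjusted p = 0.000227). Tram1, which aids entry of signal sequences, rose by 0.60 and Tmem208 by 0.43 on the log2 scale. Emc8, a subunit of the ER membrane protein complex, was the gene that fell (-0.23, limma adjusted p = 0.031), named here for its values. Without Alb-Cre replicate 4 the counts were 9 higher and 4 lower (15.2% and 46.1% of all rows). The Emc8 call was lost when any other single library was left out. It was also lost with the replicate block, median-of-ratios scaling, quantile normalization and the gene length correction (-0.07, limma adjusted p = 0.4).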

How the data were processed

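Liver RNA of 4 Alb-Cre and 4 Alb-WT libraries was sequenced, with groups and replicate numbers read from the titles. The deposited table holds FPKM values computed by the authors, with a column for each library and no pooling. Per the labels' protocols, Trizol RNA went into standard Illumina libraries. The sample descriptions also name 10x Genomics, and the values were treated as bulk because the table has a column per library and none per cell. The submitters' processing notes list HISAT2 2.0.5 with no further detail. Counting tool, annotation and strand setting were not given in the sources used here. The table held 13703 rows for 13696 symbols. Fragment numbers recovered from steps of the FPKM values were whole for 13692 rows (99.92%, relative tolerance 1e-08, or 0.05 of a fragment with the GENCODE M21 length for 142 rows), and 94.6% of the implied lengths equalled the merged GENCODE M21 exon length within 1 bp. Fragments of the listed genes came to 30101982 to 36483066 per library. Within groups, libraries differed by more than counting noise (mean squared deviate 5.65 to 429, with 1 expected).

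The test was limma 3.58.1 (R 4.3.3; empirical Bayes with trend) for genotype alone on log2(FPKM + 1). It covered 11077 rows whose mean reached 0.5 FPKM, and calls needed a Benjamini-Hochberg adjusted p below 0.05. This scale understates changes of low genes. The fit and the fragment recovery were tested on simulated data. Paralog ratios were tested by exact permutation. Alternatives were other pseudocounts, filters and scalings, a gene length correction (lowess, span 0.3), voom on recovered fragments, a replicate block, and leaving out each library. Coding lengths are the longest complete principal coding sequence in GENCODE M21. Python 3.11.15 with numpy 2.4.6, pandas 2.3.3 and matplotlib 3.10.9 did the rest. The genes and lists were chosen with earlier results of these data known. All 36 genes are named, with every library's value for the 2 smallest p of each group and for paralog pairs, and the 4 called genes of smallest p from each further list. Plasma cell markers Mzb1 and Tnfrsf17 were not analysed here.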

Additional observations from a re-analysis of the deposited data

Results flagged for a closer look

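Of 78 groups of 4 values (each of the 36 genes and the 3 paralog ratios in each genotype), 15 had a library far from the other 3, its gap to the nearest, as a share of the group's range, being past Dixon's critical value. Chance gives about 1 in 20 such groups if they are independent. These groups share the same libraries, so the number flagged cannot be weighed against that rate. Alb-Cre replicate 4 was the far library in 9 of the 15. It was the highest Alb-Cre value for Srpr (gap 0.927 of the range, 91.9 FPKM), Srp72 (0.84, 28.5 FPKM), Srprb (0.84, 12.2 FPKM), Sec61a1 (0.865, 29.7 FPKM), Sec61a2 (0.908, 1.23 FPKM), Spcs1 (0.958, 54.3 FPKM), Stt3a (0.94, 19.8 FPKM) and Uggt1 (0.863, 11 FPKM), and for the log2 ratio of Sec61a2 over Sec61a1 (0.832). Alb-Cre replicate 2 was the lowest for Srp9 (0.849, 18.4 FPKM) and Sec11a (0.86, 12.8 FPKM). Within Alb-WT, replicate 4 was the highest for Srp19 (0.855, 5.36 FPKM) and Sec61a2 (0.846, 0.962 FPKM). Alb-WT replicate 2 was the lowest for Sec61a1 (0.946, 15.2 FPKM) and Alb-WT replicate 1 for Rpn1 (0.899, 33.8 FPKM).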

How the results depend on the processing

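Of the 21 genes called higher, 14 kept the call in all 17 alternatives, 1 (Sec11c) kept it in every alternative that tested it, and 6 lost it in at least 1, most often Rpn2, Srp19, Spcs3 and Stt3b. The count was 15 with a common FPKM sum, 18 with the replicate block, 20 with a mean of at least 5 FPKM, 22 with quantile normalization or voom, 27 with the length correction and 30 with median-of-ratios scaling, and 17 to 23 on leaving out single libraries. Lower genes numbered 1 with a common FPKM sum and 0 to 2 on leaving out single libraries. Over all rows, 939 were higher and 2582 lower, and 73.3% of calls were lower. This share was 82.9% with a common FPKM sum, 44.7% with median-of-ratios scaling, 48.6% with quantile normalization, 51.8% with the length correction and 55.7% with a mean of at least 5 FPKM. The median of all rows moved from -0.13 to 0.02 with median-of-ratios scaling or quantile normalization and to -0.01 with the length correction. The genes called higher numbered 623 with a common FPKM sum, 1874 with median-of-ratios scaling, 1554 with quantile normalization and 613 with the replicate block. The genes called lower numbered 981 with a mean of at least 5 FPKM, 1516 with median-of-ratios scaling, 1469 with quantile normalization, 1503 with the length correction and 1631 with the replicate block. Leaving out single libraries gave 546 to 1680 higher and 1192 to 5088 lower. The median of the 36 genes was 0.54 with median-of-ratios scaling and 0.25 to 0.41 without single libraries.

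With median-of-ratios scaling, the length correction and a common FPKM sum, in this order, genes called higher numbered 7, 5 and 1 of 8 for signal recognition, 3, 3 and 2 of 6 for the translocon, 5, 5 and 2 of 5 for the signal peptidase, 9, 9 and 6 of 9 for the oligosaccharyltransferase, and 2, 1 and 0 of 4 for glucose trimming, while TRAP kept 4 of 4. Over all rows tested the shares called higher were 16.9%, 12.6% and 5.62%, in the same order. Median-of-ratios scaling gave medians of 0.44 for signal recognition, 0.34 for the translocon, 0.78 for TRAP, 0.54 for the signal peptidase, 0.68 for the oligosaccharyltransferase and 0.24 for glucose trimming. The length correction gave 0.33 for the translocon, 0.75 for TRAP and 0.15 for glucose trimming. A mean of at least 5 FPKM, which leaves out Sec61a2, gave 0.37 for the translocon, and a common FPKM sum gave -0.03 for glucose trimming. Without single libraries medians ranged from 0.11 to 0.34 for signal recognition, 0.05 to 0.20 for the translocon, 0.48 to 0.64 for TRAP, 0.31 to 0.39 for the signal peptidase, 0.43 to 0.54 for the oligosaccharyltransferase and 0.01 to 0.08 for glucose trimming. Signs that turned were Sec62 (0.03), Sec63 (0.13) and Ganab (0.15) with median-of-ratios scaling, Sec63 (0.13) and Ganab (0.11) with the length correction, and Mogs (-0.05) and Prkcsh (-0.01) with a common FPKM sum. Without single libraries Srp54a ranged from -0.06 to 0.10, Mogs from -0.02 to 0.08 and Ganab from -0.10 to 0.01. The cause was not tested for any of these. The log2 ratio Sec61a2 over Sec61a1 differed by -0.62 (exact permutation, adjusted p = 0.0857) and the log2 ratio Sec11c over Sec11a by 0.14 (0.171) with a pseudocount of 1. With the replicate block (sign flips, 3 pairs) they were -1.12 and 0.22 (exact adjusted p = 0.188 each), where 16 flips cannot reach 0.05. Without single libraries they were -1.40 to -1.01 and 0.17 to 0.26, and -0.08 to 0.10 for the log2 ratio Stt3b over Stt3a. Same-numbered libraries did not deviate together (r -0.097 to 0.013), so the block joins libraries that share only a number. Depth limits Sec61a2 and Srp54a, with 52 to 220 and 70 to 205 fragments, while every other of the 36 genes had at least 580 in each library.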

Other observations

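The proportions of transcripts of the Sec61 channel and its partner Sec62 differed by genotype, a comparison chosen after the values were seen and given without a test. Sec61b was 4.18, 3.39, 3.8 and 2.96 times the level of Sec61a1 per length in Alb-Cre replicates 1 to 4, against 2.02, 2.46, 2 and 2.17 times in Alb-WT. Sec61g was 1.71, 0.948, 1.48 and 1.41 times Sec61a1 in Alb-Cre and 0.571, 0.838, 0.521 and 0.75 times in Alb-WT. Sec62 was 1.76, 1.8, 1.73 and 1.13 times Sec61a1 in Alb-Cre and 2.28, 2.55, 2.34 and 2.08 times in Alb-WT. For all 3 the groups did not overlap. These ratios were not corrected for the libraries' trends with gene length. That correction moved the log2 fold change of Sec61a1 from 0.37 to 0.54 and that of Sec61b from 1.09 to 0.99. Sec61g moved from 1.35 to 1.39 and Sec62 from -0.16 to -0.03.

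Xbp1, which encodes a transcription factor of the unfolded protein response known to act on genes of ER import, was at 77, 81.9, 76 and 125 FPKM in Alb-Cre, against 58.2, 55.1, 58.1 and 56.3 FPKM in Alb-WT (limma log2 fold change 0.62, SE 0.149, adjusted p = 0.0171). As for most of the 36 genes, Alb-Cre replicate 4 was the highest library. Xbp1 also stood in the list of plasma cell markers, a cell type rich in this machinery, of which 3 of 5 were in the table. Jchain was at 1.66 to 3 FPKM in Alb-Cre replicates 1 to 3 and 9.73 FPKM in replicate 4, against 3.05 to 3.91 FPKM in Alb-WT, and Sdc1 was lower in Alb-Cre (-0.25, limma adjusted p = 0.0216). The summed level of the 4 B cell markers was 0.701 to 1.37 FPKM in Alb-Cre replicates 1 to 3. It was 5.57 FPKM in replicate 4 and 2.72 to 3.6 FPKM in Alb-WT. The part of plasma cells and B cells in the higher values of replicate 4 was not tested.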
